A study of Mus musculus with 4 samples.

Results

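Alternative 5′ splice sites are donor sites of the same exon that compete for splicing to the same downstream acceptor. The sites described here are all donors listed in the authors' table of such events except the first, most upstream donor of each event, so that every site marks a longer form of its exon. There were 19376 such donors, in 16352 events of 8929 genes, among 98003 exons and splice sites listed for the series. A donor was kept where all 4 libraries gave a value and at least 3 had a coverage score of LOW or better, that is, 20 or more junction reads. This left 12139 donors (62.6%) in 10088 events of 5561 genes, of which 8491 events (84.2%) had 2 donors, 1263 had 3 and 33 had 6 or more. The measure is the PSI, here the percent of the junction reads into the acceptor that come from the donor in question. A PSI of 0 means that no read left from that donor, and a PSI of 100 that all reads did.

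The cells were N2a, a mouse neuroblastoma line with neuronal traits. All of them received siRNA for 48 h, either a non-targeting control (siControl) or siRNA against ARGLU1 (siARGLU1), an arginine- and glutamate-rich protein that binds RNA and splicing factors. After that time they were given, for 4 h, EtOH vehicle (Veh) or the synthetic glucocorticoid dexamethasone (Dex) at 100 nM. This gives 4 groups, siControl and siARGLU1 each with Veh and with Dex. Each group is 1 polyA-enriched library from the pooled RNA of 3 cultures. No test was made, since no pair of libraries has replicates, and a difference was called by its size alone, 15 PSI or more. Knockdown was measured once in vehicle and once in Dex, and Dex once in each siRNA state, each time in pairs that share no library, and these are the repeats in the design.

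Arglu1 itself had 10165 and 11825 reads in the siControl libraries with Veh and Dex, against 2637 and 3254 in the siARGLU1 libraries. Between 66074574 and 86541444 reads fell on genes per library. Throughout, 4 values in a row are given in the order siControl Veh, siControl Dex, siARGLU1 Veh, siARGLU1 Dex. The donors had a median of 136, 143, 108 and 158 junction reads, so that siARGLU1 Veh was covered least. Of 16 neuroblastoma and sympathetic neuron markers, 14 had a cRPKM (reads relative to mappable length and library size) of at least 1 in all libraries, with a sum of 1793.01 to 2403.47, while none of 4 markers each of astrocytes, microglia and leukocytes, oligodendrocytes, fibroblasts and epithelium did, with sums of at most 2.17.

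A donor is the exon-intron border at the start of an intron, which nearly always begins with GT and in a small minority with GC. It is recognised first by base pairing with U1 snRNA and later by U6 snRNA, and SR proteins and hnRNPs bound nearby shift the choice between neighbouring donors. Where the downstream donor is used, the first bases of the intron of the upstream donor become exon. Within coding sequence, an extra length that is a multiple of 3 keeps the reading frame. Any other length shifts it, which often brings a premature stop codon and decay of the mRNA.

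The extra exon sequence shows this arrangement directly. The following sequences, 5′ to 3′ on the coding strand, are shown because their donors carry the knockdown results below or stand for a distance class. Each gives the last 9 exonic bases before the first donor in lower case and the bases that the downstream donor adds in capitals. They come from GENCODE M21 transcripts in which intron and exon lengths match the longer form of the event.
Topbp1, 4 nt: gcgctttgtGCAG
St6galnac6, 4 nt: ctgactactGCAG
Hnrnph1, 9 nt: caagcggtgGTGCTTACG
Cnbp, 21 nt: gcggcagagGTGGTTTTACCTCGGATAGAG
Klc1, 27 nt: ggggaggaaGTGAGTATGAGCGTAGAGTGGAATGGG
Fbxo44, 29 nt: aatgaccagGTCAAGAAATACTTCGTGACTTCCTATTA
Entpd4, 43 nt: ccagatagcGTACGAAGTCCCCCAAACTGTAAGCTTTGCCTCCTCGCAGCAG
Eps15, 108 nt: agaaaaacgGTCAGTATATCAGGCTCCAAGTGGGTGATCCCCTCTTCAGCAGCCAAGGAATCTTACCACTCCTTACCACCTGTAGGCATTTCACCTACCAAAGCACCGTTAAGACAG
Zmynd8, 156 nt: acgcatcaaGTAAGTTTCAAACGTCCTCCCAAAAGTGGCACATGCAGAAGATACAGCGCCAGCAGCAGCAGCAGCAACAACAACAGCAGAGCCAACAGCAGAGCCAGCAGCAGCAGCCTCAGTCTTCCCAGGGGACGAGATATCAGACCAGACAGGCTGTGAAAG
In all of them the capitals open with GT or GC, the first letters of the intron of the shorter form. In Entpd4, another donor lies 19 nt into the capitals, and the letters after it read GTAAGC.

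An annotated longer form of this kind was found for 5824 of the 12139 donors (48%), which leaves the others undescribed in sequence. Of the matched donors, 4141 extended a coding exon, 840 a 5′ UTR and 82 a 3′ UTR. The other 761 lay only in transcripts not classed as protein-coding. Whether these have coding sequence at the donor was not checked. The extension began with GT or GC in 98.3% of the 5628 with sequence, GT in 87.3% and GC in 10.9%. The class of 4 nt stood apart by its letters: 54.1% of its 501 matched extensions began with GC, against 11.1% of the other extensions under 13 nt and 4.06% of those over 100 nt. Read on the coding strand, the 4 letters were GCAG in 189 donors (37.7%), GTAG in 79 (15.8%), GTGG in 58 (11.6%) and GCAA in 44 (8.78%), and GTAA, the opening of many strong donors, in 11 (2.2%). The median PSI in siControl Veh was 100.0 for GCAG, 98.15 for GTAG and 4.0 for GTAA. Matching requires the longer form to be annotated, which favours donors in use, so these letters and medians hold for annotated donors only.

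Most donors were used nearly always or almost never. In siControl Veh, 6448 of 12139 (53.1%) had a PSI of 5 or less, 3685 (30.4%) a PSI of 95 or more, and 2006 (16.5%) lay between. In the other 3 libraries, the share between was 16.2% to 16.5%. By distance from the first donor, the kept donors fell into 974 at 4 nt, 2050 at other distances under 13 nt, 5258 at 13 to 100 nt and 3857 over 100 nt. The median PSI in siControl Veh was 7.12, 22.49, 13.62 and 0.57 in these classes. The class over 100 nt had the largest share of rarely used donors, and among donors 201 to 499 nt away 79.2% had a PSI of 5 or less, against 41.9% at 13 to 25 nt.

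The distance of 4 nt was by far the most common short distance, with 974 donors against 377 at 5 nt, 272 at 6 nt and 239 at 3 nt. From 3 to 12 nt, the median PSI was higher at multiples of 3 than at other distances. The median PSI was 98.9 at 3 nt, 7.12 at 4 nt, 2.94 at 5 nt and 64.31 at 6 nt, and at 12 nt it was 28.57 against 7.03 at 11 nt. At 9 nt the median was 13.58, beside 6.71 at 8 nt and 3.54 at 10 nt. The distances of 1 nt, with a median of 58.46 over 27 donors, and 2 nt, with 96.12 over 169, did not follow this order. The share with a PSI of 95 or more was 58.6% at 3 nt, 39.3% at 6 nt, 32.5% at 9 nt and 38.7% at 12 nt. It was 39.2% at 4 nt and 34.9% at 8 nt, so from 3 to 12 nt only 3 nt stood apart by this share.

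**Figure D1:**
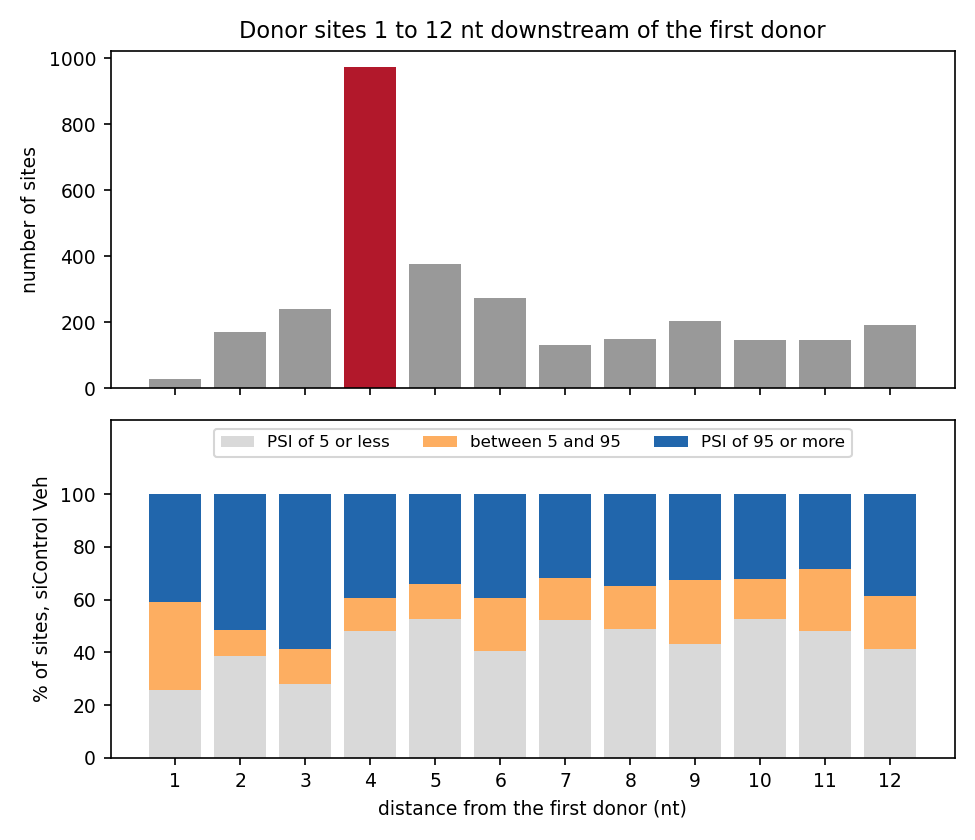
Number of donors at each distance of 1 to 12 nt from the first donor (upper panel, 4 nt in red) and the percent of them with a PSI of 5 or less, between 5 and 95, or 95 or more in siControl Veh (lower panel, stacked bars). The column at 4 nt holds 974 donors, and the share with a PSI of 95 or more is highest at 3 nt, with 58.6%.

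Donors were also sorted by whether the added length is a multiple of 3, which goes by length alone. This takes in donors in UTRs and donors without an annotated match, so it is not a count of kept reading frames. Among other distances under 13 nt, donors at multiples of 3 had a median PSI of 69.79 (905 donors) and the others 7.03 (1145 donors). At 13 to 100 nt, the medians were 40.96 (2024 donors) and 8.43 (3234 donors). Because most donors lie at the ends of the scale, a median between them marks the balance of both ends rather than a typical donor. The shares show the same order with smaller steps: at other distances under 13 nt, 42.8% of the donors at multiples of 3 and 35.7% of the others had a PSI of 95 or more, and 38% and 48.9% had a PSI of 5 or less. The donors under 13 nt at multiples of 3 include 239 at 3 nt, 58.6% of them with a PSI of 95 or more. Donors at 4 nt are not counted among the others. These values are a description over sites within 1 library, with no test.

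**Figure D2:**
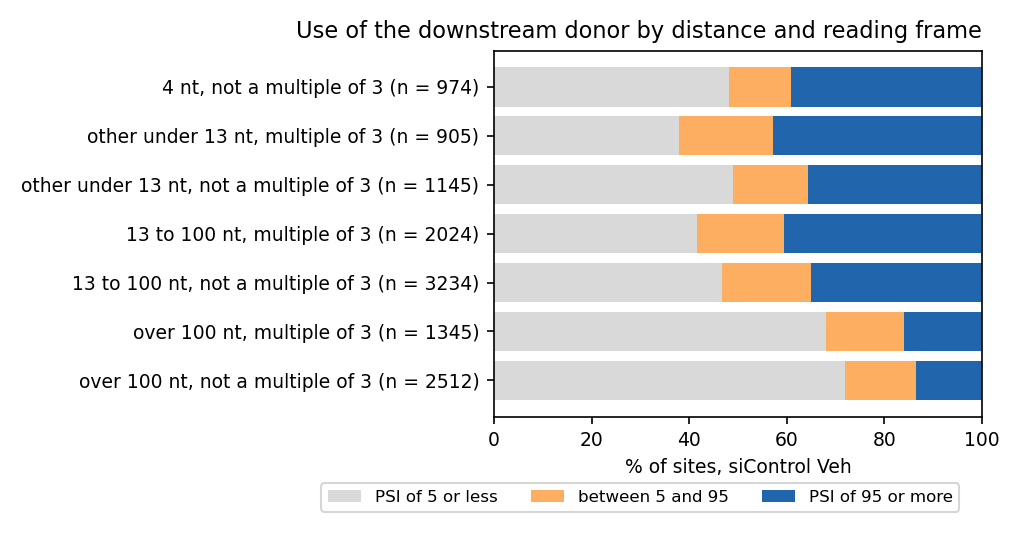
Percent of donors with a PSI of 5 or less (grey), between 5 and 95 (orange) and 95 or more (blue) in siControl Veh, by distance and by whether the added length is a multiple of 3, with the number of donors in brackets. At each distance with both kinds, donors at multiples of 3 have the wider blue and the narrower grey part.

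Knockdown moved few donors by 15 PSI. In vehicle, siARGLU1 lay above siControl by this much at 68 donors and below it at 89, together 1.29% of the 12139. Over all exons and splice sites of the series the same size was reached by 1.85%, with 0.795% higher and 1.06% lower. In Dex, 43 were higher and 83 lower (1.04%), beside 1.45% of all exons and splice sites, 0.626% higher and 0.821% lower. Cassette exons with microexons reached it in 2.39% in vehicle, and alternative 3′ splice sites in 1.19%. In both pairs at once and in the same direction, 17 donors in 15 events of 15 genes passed, 7 higher and 10 lower (0.14%). The shares over all exons and splice sites were 0.194% higher and 0.312% lower, each above the 0.14% of alternative donors in both directions. Cassette exons with microexons had 0.8% and alternative 3′ splice sites 0.192%. Among those scored OK or better in every library, the shares were 0.139% for alternative donors, 0.694% for cassette exons with microexons and 0.122% for alternative 3′ splice sites. The reads behind a score were checked for alternative donors only, so an equal score need not mean equal coverage across these types. Another 11 donors passed in opposite directions, none of them scored OK, that is 40 or more reads, or better in every library.

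How often the vehicle and Dex pairs went together rose with the reads behind a donor. Where the fewest reads of the 4 libraries were under 20, 54 of 817 donors passed 15 PSI in vehicle and 19 of them (35.2%) had the same sign in Dex. At 20 to 39 reads it was 30 of 50 (60%), at 40 to 99 reads 35 of 39 (89.7%), at 100 to 299 reads 9 of 9 and at 300 or more 5 of 5. Across donors, the knockdown differences of both pairs had a Pearson correlation of -0.103 in the thinnest class (n = 817) and 0.663 in the deepest (n = 2553). Donors of 1 event share their reads, and the correlation is given as a description. A donor called in the vehicle pair alone at fewer than 40 reads therefore had little repeat, and the donors described below were taken, unless stated otherwise, from the 9386 that scored OK or better in every library. Among these, 53 passed in vehicle (24 higher, 29 lower), 44 in Dex (13 higher, 31 lower) and 13 in both.

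**Figure D3:**
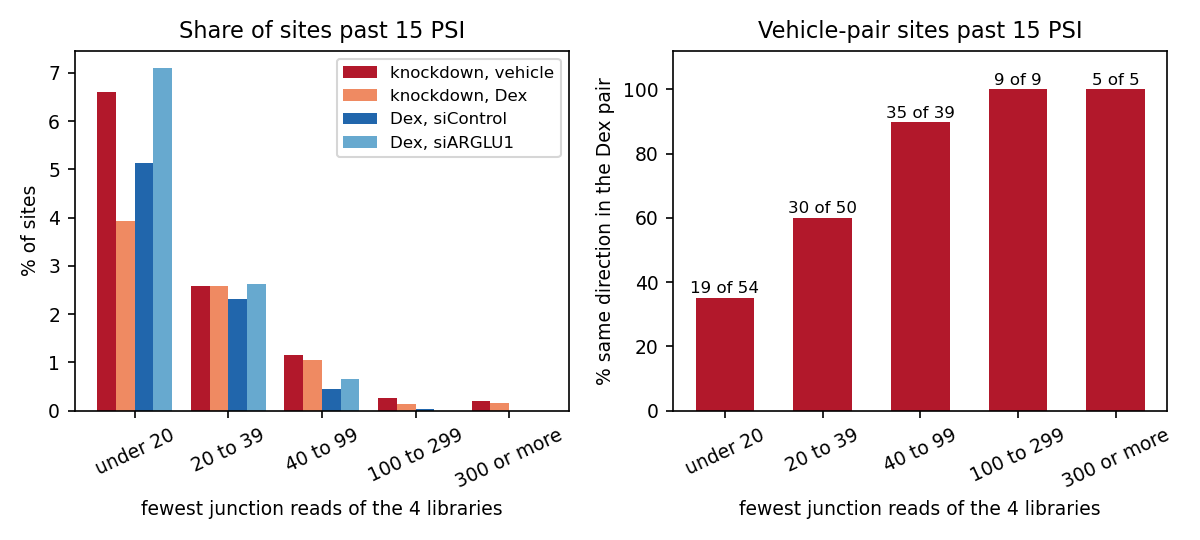
Percent of donors with a difference of 15 PSI or more in each pair of libraries (left) and, of donors past it on knockdown in vehicle, the percent with the same sign in Dex (right, with the numbers above the bars), by the fewest junction reads of the 4 libraries. The left bars shrink with reads, from 6.61% to 0.196% for knockdown in vehicle, and the right bars grow from 35.2% to 100%.

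By distance class, none of the 974 donors at 4 nt passed in both pairs (0%, exact 95% binomial interval 0 to 0.378%), and 4 of them passed in opposite directions. At other distances under 13 nt it was 1 of 2050 (0.0488%, 0.001 to 0.271%), at 13 to 100 nt 8 of 5258 (0.152%, 0.066 to 0.3%) and over 100 nt 8 of 3857 (0.207%, 0.09 to 0.408%). These intervals overlap. They treat donors as independent, although donors of 1 event share their reads: the 8 at 13 to 100 nt came from 7 events, with 2 donors in Entpd4. They do not cover the spread between cultures. Over 100 nt, 7 of the 8 were lower, and single pairs leaned likewise, with 17 higher and 41 lower in vehicle and 15 and 29 in Dex. At 13 to 100 nt, 6 of the 8 were higher, but single pairs did not keep a direction, with 39 higher and 31 lower in vehicle and 17 and 37 in Dex. By added length, 7 of 4274 donors at multiples of 3 (0.164%) and 10 of 7865 at other lengths (0.127%) passed in both pairs. These classes do not stand for the reading frame. Among the latter, the donors of Lyrm5, Dak and BC031181 lie in 5′ UTRs, as does that of Cops7a among the former.

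**Figure D4:**
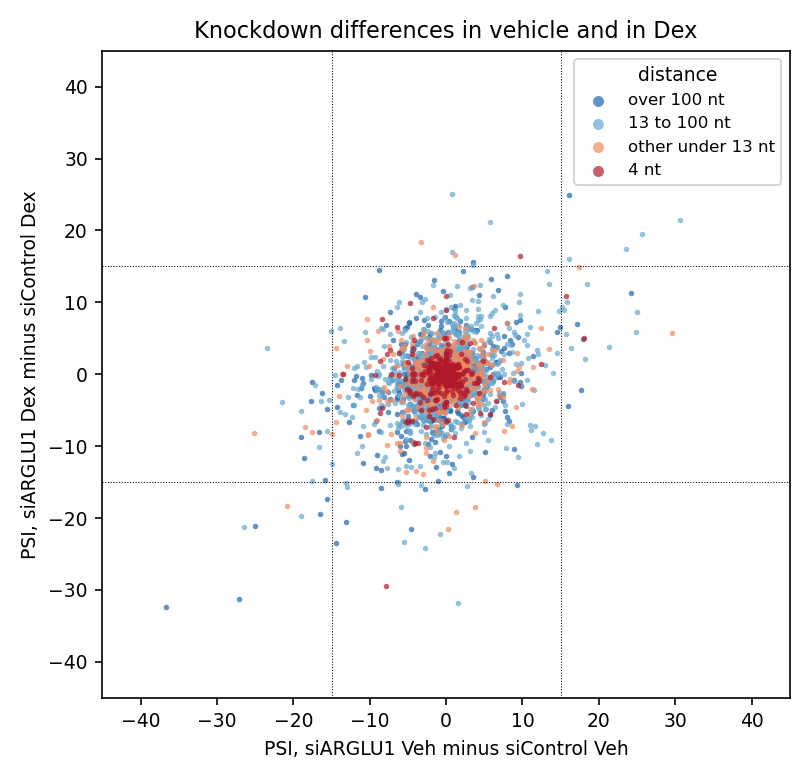
Knockdown difference in PSI of the 9386 donors that scored OK or better in every library, in vehicle (horizontal) and in Dex (vertical), 1 point per donor, coloured by distance from the first donor, with dotted lines at 15 PSI in either direction. The corner fields beyond 15 PSI in both pairs hold 5 donors at the upper right and 8 at the lower left, and the opposite corners hold none.

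Of donors 13 to 100 nt away, Klc1 had the most reads of all donors past 15 in both pairs. Klc1 encodes kinesin light chain 1, which ties cargo to the kinesin motor. On chromosome 12, plus strand of mm9, its first donor lies at 113027670 and the downstream donor at 113027697, 27 nt on, in frame and in coding sequence. The downstream donor had a PSI of 57.64, 60.41, 81.23 and 77.9, from 533, 545, 589 and 699 reads. Both knockdown libraries lay above both controls, by 23.59 in vehicle and 17.49 in Dex, and the Dex difference was 2.77 in siControl and -3.33 in siARGLU1. The capitals printed for Klc1 begin with GTGAGT, the letters of a textbook donor, and this upstream donor was the less used of the pair in all 4 libraries.

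Fbxo44, an F-box protein of a ubiquitin ligase, has donors at 147530718 and 147530689 on the minus strand of chromosome 4, 29 nt apart, so that the longer form shifts the frame. Its PSI was 37.84 (exact interval 26.82 to 49.87), 36.26 (26.44 to 47.01), 63.53 (52.38 to 73.71) and 55.83 (46.48 to 64.89). The vehicle intervals were apart, and those in Dex overlapped by less than 1 PSI. The differences were 25.69 and 19.57.

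Entpd4, a nucleotide diphosphatase of Golgi and lysosome, showed a switch between donors of the same exon on chromosome 14. The donor at 69975182, 19 nt after the first, had a PSI of 16.93, 18.6, 47.57 and 40.01, and the donor at 69975206, 43 nt after the first, had 78.84, 79.33, 52.43 and 58.08. They exchanged use at the expense of each other, by 30.64 and -26.41 in vehicle and 21.41 and -21.25 in Dex, and the remaining 3 donors stayed at 2.12 or less. In Dex the intervals of siControl and siARGLU1 overlapped at both donors. The reads were 43, 44, 83 and 98, and the level of the gene itself was also higher in siARGLU1, with log2 ratios of 0.995 (vehicle) and 1.025 (Dex). Its part in the change of PSI was not tested.

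Add1 was lower after knockdown. It encodes alpha-adducin, which caps actin filaments and ties them to spectrin. Its donors lie at 34959463 and 34959556 on the plus strand of chromosome 5, 93 nt apart and in frame. The PSI was 43.14 (37.52 to 48.9), 43.87 (38.27 to 49.59), 24.1 (18.28 to 30.73) and 24.1 (19.19 to 29.57), a difference of -19.04 in vehicle and -19.77 in Dex, with intervals apart in both pairs. Cntfr, the receptor subunit that binds ciliary neurotrophic factor, has 5 donors, of which that at 86 nt had a PSI of 21.01, 19.2, 3.45 and 4.34, while its first donor went from 67.39 and 71.2 to 92.24 and 85.66. Its difference of -14.86 in Dex fell just short of 15.

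Over 100 nt away, the largest difference among donors with OK coverage was in Eps15, an adaptor of clathrin-mediated endocytosis. Its donors at 108993822 and 108993930 on the plus strand of chromosome 4 are 108 nt apart, and the added bases printed above are coding and in frame. The PSI was 57.96, 57.62, 21.34 and 25.27 from 69, 89, 54 and 91 reads, a difference of -36.62 and -32.35. The Dex difference was -0.34 in siControl and 3.93 in siARGLU1, so the libraries of each siRNA lay close together.

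Ccnt2, cyclin T2 of the elongation factor P-TEFb, has donors 310 nt apart at 129694463 and 129694773 on the plus strand of chromosome 1, in an annotated transcript without coding sequence. Its PSI was 72.22 (61.78 to 81.15), 77.01 (66.75 to 85.36), 45.1 (31.13 to 59.66) and 45.74 (35.42 to 56.34), with intervals apart in both pairs and differences of -27.12 and -31.27.

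In the opposite direction, the donor of Psmb10, a catalytic subunit of the immunoproteasome, 259 nt downstream, had a PSI of 4.35, 2.53, 20.51 and 27.52, and was the only donor over 100 nt to be higher by 15 in both pairs. Rbm5, an RNA-binding splicing regulator, had a donor at 333 nt in its 5′ UTR with 9.74 (5.55 to 15.56), 12.5 (7.7 to 18.83), 33.9 (22.08 to 47.39) and 23.76 (15.85 to 33.26), so that the difference of 24.16 in vehicle was larger than the 11.26 in Dex.

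**Figure D5:**
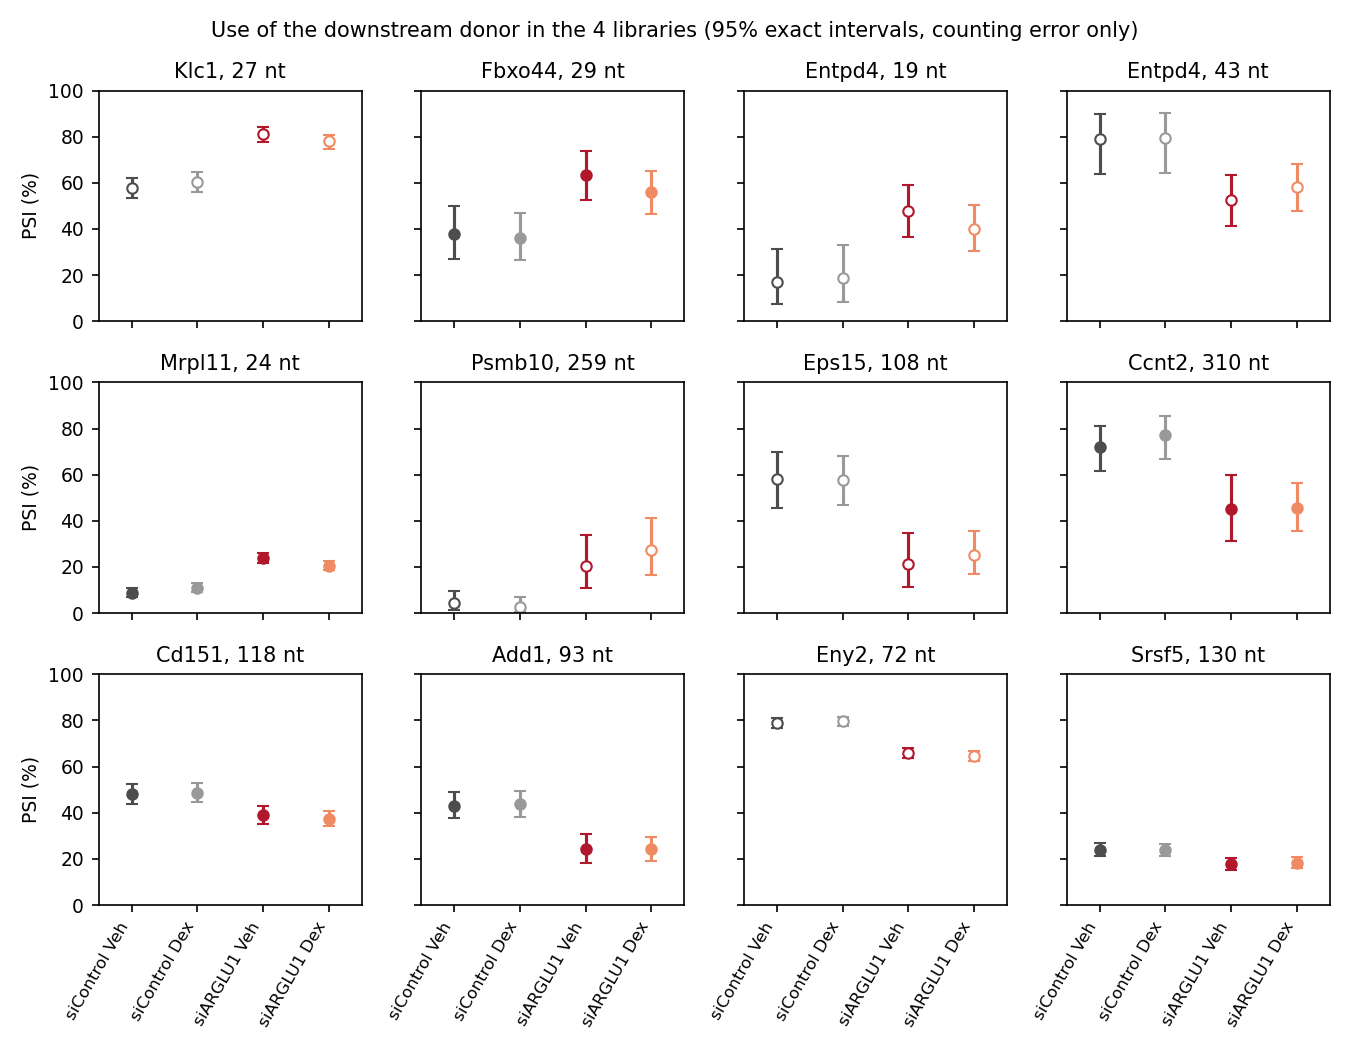
PSI of the downstream donor of 12 donors in 11 genes in the 4 libraries, with exact 95% intervals from junction reads (counting error only); filled points are donors whose PSI and reads give whole reads, and for open points the interval is a rough guide because the authors' PSI is corrected for mappability. In every panel both siARGLU1 points lie on the same side of both siControl points, above them for Klc1, Fbxo44, Entpd4 at 19 nt, Mrpl11 and Psmb10 and below them for the other 7.

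The other donors past 15 in both pairs were in 7 further genes. BC031181 had a pair of donors in its 5′ UTR that exchanged use with intervals apart in both pairs: that at 31 nt had a PSI of 23.34, 23.29, 39.42 and 39.39, and that at 131 nt had 72.94, 72.88, 57.41 and 55.51, from 365 to 490 reads. Zmynd8, a chromatin reader, had 69.8, 72.43, 53.35 and 52.98 at 156 nt, with its printed extension opening with GTAAGT, another textbook donor. Lyrm5, a small mitochondrial protein, had 77.65, 63.86, 56.77 and 45.61 at 8 nt in its 5′ UTR, and was also lower in Dex than in vehicle, by -13.79 and -11.16. Cops7a, a subunit of the COP9 signalosome, had 59.26, 47.5, 74.51 and 63.64 at 66 nt, from 27, 40, 51 and 77 reads. Its coverage in siControl Veh was thus below OK. Lrrc45, Dak and Zdhhc24 had a library with 18 to 22 reads, and their intervals overlapped between siControl and siARGLU1 in both pairs. The same held for Lyrm5 and Cops7a, and for Zmynd8 in vehicle.

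At 4 nt, 1.23% of the donors passed 15 PSI in each single knockdown pair, near the share over all donors, while the smaller of both knockdown differences did not go beyond 10.88 upward and -7.83 downward among 760 donors with OK coverage. St6galnac6, a sialyltransferase, had a PSI of 84.29, 75.6, 100.0 and 86.48 for the donor after GCAG, Atp6v1e1, a subunit of the vacuolar proton pump, had 76.72, 77.61, 83.02 and 84.03 from 796 to 1044 reads, and Pggt1b, the beta subunit of a protein prenyltransferase, had 16.67, 13.73, 26.32 and 30.12. The lowest at 4 nt were Epc1, a NuA4 acetyltransferase subunit, with 71.66, 80.23, 63.83 and 50.72, Hnrnpa1, a splicing repressor, with 32.57, 32.98, 23.92 and 27.56, and Mettl10, a methyltransferase, with 24.65, 20.35, 19.34 and 13.7. Hnrnpa1 has many processed copies in the genome, and its reads are uncertain for that reason. The intervals of siControl and siARGLU1 overlapped in both pairs for Pggt1b, Hnrnpa1 and Mettl10, and in vehicle for Epc1.

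At other distances under 13 nt, Dctn2, the dynamitin subunit of dynactin, had the largest difference upward, with a PSI of 20.38, 19.04, 37.77 and 33.9 at 3 nt, that is, 17.39 in vehicle and 14.86 in Dex. Morc2a, a chromatin-associated ATPase, had 23.16, 26.6, 31.18 and 33.72 at 3 nt, and Pdcd11, a factor of ribosomal RNA processing, had 27.56, 31.12, 39.94 and 37.55 at 11 nt. Downward, next to Lyrm5, Cnot3, a subunit of the CCR4-NOT deadenylase, had 22.13, 23.89, 11.93 and 15.5 at 11 nt. For Morc2a, Pdcd11, Cnot3 and Lyrm5 the intervals of siControl and siARGLU1 overlapped in both pairs, while for Dctn2 they were apart. The PSI and reads of Dctn2 do not give whole reads, so its intervals are too narrow and only a rough guide.

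A second view takes donors whose exact intervals were apart in both knockdown pairs, whatever the size. There were 27 in the same direction, in 25 genes, 10 higher and 17 lower (0.222%), beside 0.16% of all alternative donors and acceptors. For 12 of the 27, PSI and reads give whole reads, and another 5 donors, none of them whole, were apart in opposite directions. Without whole reads the intervals are too narrow and only a rough guide, as for Eny2, Tsta3, Hnrnph1 and Pcbp3 below. This view brings in well-covered donors with smaller differences, named here because their intervals are apart and after their values were seen. Eny2, shared by the SAGA deubiquitinase and the TREX-2 mRNA export complex, had a PSI of 78.97, 79.64, 65.82 and 64.56 at 72 nt from 1576 to 2019 reads, with its first donor taking up the difference (19.85, 19.85, 33.24 and 34.47). Mrpl11, a mitochondrial ribosomal protein, had 8.8 (7.08 to 10.78), 11.08 (9.27 to 13.1), 23.92 (21.81 to 26.13) and 20.5 (18.62 to 22.49) at 24 nt in a 3′ UTR. Fen1, the flap endonuclease of DNA replication, had 69.68, 69.35, 58.75 and 56.99 at 116 nt in its 5′ UTR, Cd151, a tetraspanin, had 48.09, 48.62, 39.02 and 37.39 at 118 nt, and Tsta3, an enzyme of GDP-fucose synthesis, had 56.34, 49.04, 39.74 and 38.87 at 66 nt.

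Further donors of this view follow, likewise named after their values were seen. Srsf5, an SR protein, had a PSI of 24.01 (21.26 to 26.93), 23.77 (21.13 to 26.57), 17.64 (15.12 to 20.39) and 18.29 (16.06 to 20.69) at 130 nt in its 5′ UTR. Luc7l3, a partner of U1 snRNP, had 96.96 (95.03 to 98.29), 96.61 (94.76 to 97.95), 91.39 (89.41 to 93.1) and 91.42 (89.63 to 92.99) at 53 nt. Hnrnph1, which binds runs of G near donors, shifted by about 3 PSI between its donors at 9 nt (89.07, 89.23, 91.8 and 92.33) and at 39 nt (9.96, 10.0, 7.13 and 6.67), from 2378 to 3272 reads. Pcbp3, a poly(C)-binding protein, had 3.9, 3.48, 1.03 and 0.63 at 37 nt. Cnbp, a nucleic acid-binding zinc finger protein, had 53.74, 51.82, 58.36 and 59.88 at 21 nt, and Ncl, nucleolin, had 7.21, 6.25, 9.49 and 8.31 at 215 nt from 3036 to 4957 reads. All these differences were under 10 PSI.

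Counted by gene group, the numbers were small. Over all donors, 1.29% passed 15 PSI in vehicle and 1.04% in Dex, so counts of 0 or 1 do not set a splicing factor group apart. None of the 52 donors in 19 genes of SR proteins and splicing activators, and none of the 92 donors in 34 genes of hnRNPs and exon regulators, passed 15 PSI in either knockdown pair, while 2 and 3 of them had intervals apart in both. Of 70 donors in genes of U1 snRNP and donor selection, 1 passed in vehicle (Rbm5) and none in Dex. Splicing kinases had 1 of 18 in Dex (Srpk2 at 27 nt, 69.76, 73.44, 71.29 and 41.69). Chromatin genes had 3 of 208 higher in vehicle and 1 lower in Dex, none in both. Genes of neurite growth, cytoskeleton and synapse had 3 of 77 in vehicle, among them Add1, the only one in both. The glucocorticoid receptor and its targets had 0 of 22, and cytosolic ribosomal proteins 4 of 123 in vehicle (3.25%) and 3 in Dex, in genes with many processed copies and hence uncertain reads. The median absolute difference in vehicle was 0.55 in the SR group, 0.17 in the hnRNP group and 0.54 in ribosomal proteins, beside 0.38 over all donors.

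Position in the gene also went with the counts of single pairs. Events whose exon has no upstream acceptor in the table, as first exons have, held 2913 donors, of which 2.2% passed 15 PSI in vehicle and 1.61% in Dex, against 1.01% and 0.856% of the 9226 donors in exons with an acceptor. In both knockdown pairs at once, only 1 of the 2913 was higher and 4 lower, beside 6 higher and 6 lower of the 9226. These few do not set the classes apart. Of the donors without an acceptor, 22.6% had a PSI between 5 and 95 in siControl Veh, and of those with an acceptor 14.6%. The part of this share in the difference of the single pairs was not tested.

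Dex differences showed little repeat between the siRNA states. In siControl, 54 donors were higher and 49 lower after Dex (0.849%), beside 0.704% of all exons and splice sites, 0.345% higher and 0.359% lower. In siARGLU1, 60 were higher and 71 lower (1.08%), beside 0.913%, 0.49% higher and 0.422% lower. In both states at once, 11 donors passed with equal sign and 11 with unequal sign. Of the 103 donors past 15 in siControl, 46 (44.7%) had the same sign in siARGLU1, and with OK coverage in all libraries 9 of 16 (56.2%), whereas the like share for knockdown was 62.4% and 92.5%. Across the 9386 donors with OK coverage, the Dex differences of both states had a Pearson correlation of 0.015 and the knockdown differences 0.333, given as a description. At 300 or more reads in every library, no donor of 2553 reached 15 PSI with Dex in either state.

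The donors with the largest Dex differences in siControl and intervals apart there were mostly close pairs, and none of the 6 named gives whole reads. Atp2b1, a plasma membrane calcium pump, had a PSI of 100.0, 72.29, 100.0 and 83.15 at 4 nt, lower after Dex by -27.71 and -16.85. Slc20a2, a phosphate transporter, had 85.23, 100.0, 77.99 and 100.0 at 4 nt, higher by 14.77 and 22.01. In both genes the libraries of the same treatment went together in both siRNA states. Timm9, an import chaperone of mitochondria, had 35.84, 17.58, 17.42 and 10.2 at 5 nt, so that the knockdown difference in vehicle (-18.42) was as large as that of Dex in siControl (-18.26). Xlr had 2.6, 23.26, 2.84 and 1.8 at 8 nt, high in siControl Dex alone, and belongs to a family of near-identical genes on the X chromosome, so its reads are uncertain. Mov10, an RNA helicase, had 88.2, 99.05, 98.75 and 98.26 at 56 nt, low in siControl Veh alone. Mapk8ip3, a scaffold of JNK signalling and axonal transport, had 13.65, 2.75, 7.21 and 12.11 at 93 nt.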

How the data were processed

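N2a cells were profiled by RNA-seq in 4 libraries, each from RNA of 3 pooled cultures. The authors' vast-tools table of alternative 5′ splice sites gives a PSI in percent and a string of coverage scores with junction reads per library. The fields of that string are described in no source used here, and their meaning, including which number holds the junction reads into the acceptor, was inferred from the values. The submitters' processing notes name Bowtie and mm9, with no version stated. The authors also deposited counts of reads per gene and RPKM corrected for mappability (cRPKM), and 2 unnamed columns of their Dex over vehicle ratios, which were not used. For alternative donors, scores follow reads: 10 to 19 for VLOW, 20 to 39 for LOW, 40 to 99 for OK and 100 or more for SOK. The PSI times the reads was whole in all libraries (tolerance 0.02 plus rounding) for 63.7% of donors with a PSI between 0 and 100. Elsewhere the PSI is corrected for mappability, 1 read can weigh more, and exact intervals are too narrow; the text prints intervals only where reads were whole.

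Differences were taken as siARGLU1 minus siControl and Dex minus vehicle and called at 15 PSI. Exact 95% (Clopper-Pearson) intervals of a PSI cover counting error only. With 1 library per group no p-value was computed. Gene levels are TMM-scaled log2 CPM (edgeR 4.0.16, R 4.3.3, prior count 1); tables were made with pandas 2.3.3 and scipy 1.17.1. Scripts were tested on simulated data. Named genes are, per distance class, the 3 largest differences upward and the 3 downward by the smaller of both knockdown differences (same sign, OK or SOK in all libraries, 1 per gene); the 3 and 3 largest Dex differences in siControl with intervals apart; and listed genes past 15 in both knockdown pairs. Of the donors these rules select, 3 are not reported here. Other donors past 15, or with intervals apart, in both pairs were named after their values were seen. Members and gene lists were chosen with earlier results of these data known.

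No mm9 genome was used. Extensions were read, as a step chosen after the data were seen, from GENCODE M21 (GRCm38) transcripts of the same Ensembl gene. The intron length from the downstream donor had to fit, and extensions were printed only where the exon length also fits. The first donor did not have to be annotated. With this acceptor it was not annotated for the printed Topbp1, St6galnac6, Hnrnph1, Klc1 and Entpd4. No coordinate was converted; printed coordinates are mm9 and give the last exonic base.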

Additional observations from a re-analysis of the deposited data

Results flagged for a closer look

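Of the 6 donors named for Dex, 3 had Dex differences of opposite sign in siControl and siARGLU1, each state being 1 pair of libraries. The contrast between the states was not tested, and for Xlr and Mov10 the difference in siARGLU1 was near 0 with overlapping intervals. The Dex difference in siARGLU1 minus that in siControl was -21.7 PSI for Xlr at 8 nt, -11.34 for Mov10 at 56 nt and 15.8 for Mapk8ip3 at 93 nt. Xlr was at 20.66 in siControl and -1.04 in siARGLU1, Mov10 at 10.85 and -0.49, and Mapk8ip3 at -10.9 and 4.9. In Mov10 the donor at 52 nt, 4 nt before, had 8.79, 0.0, 0.0 and 0.0, and so took up most of the difference. All 3 donors were chosen for a large difference in siControl.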

How the results depend on the processing

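The counts moved most with the minimum on reads and with the PSI threshold. The main counts were 157 donors for knockdown in vehicle, 126 for knockdown in Dex, 103 for Dex in siControl, 131 for Dex in siARGLU1 and 17 for both knockdown pairs, and values below follow this order. Where every library scored OK or better, they were 53, 44, 16 and 22, and both pairs kept 13, within 1.5 times of 17. Without a minimum they were 954, 844, 813, 901 and 209, and the share past 15 in both pairs was 1.43% at 4 nt, 1.32% at other distances under 13 nt, 1.2% at 13 to 100 nt and 1.6% over 100 nt. At 25 PSI they were 32, 18, 12, 31 and 3, and the shares were 0 at other distances under 13 nt and at 13 to 100 nt and 0.0778% over 100 nt. With 2-donor events only, they were 99, 74, 64, 73 and 9, and the share at other distances under 13 nt was 0. With the complexity score S in all libraries, they were 98, 63, 54, 73 and 11, with 0 at other distances under 13 nt. For donors with whole reads, an alternative chosen after seeing the data, they were 90, 70, 59, 70 and 9, again with 0 at other distances under 13 nt. The settings on scores, 2-donor events and whole reads test fewer donors, which lowers a count by itself. With 1 read added for and against each donor, all 5 counts stayed within 1.5 times (130, 108, 84, 113 and 14), and of 60 recomputed differences of named donors, 60 kept their sign and their side of 15 PSI.

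Replicates could not be paired because each group has 1 library, and for the same reason no replicate could be left out. Knockdown was compared within each treatment and Dex within each siRNA state. An additive fit of knockdown and Dex over the 4 libraries, which leaves 1 residual degree of freedom, was not run. Each PSI covers 3 pooled cultures without their spread. siARGLU1 Veh was covered least, so the vehicle pair of knockdown and the siARGLU1 pair of Dex carry the larger counting error. At the median of 108 to 158 junction reads, differences of a few PSI can lie within counting error, above all for donors in the middle of the scale. The smallest detectable difference was not computed.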
